A study of Mus musculus with 15 samples.

Results

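Ribosomal RNA processing and nucleolar factors were followed in mouse embryonic fibroblasts (MEFs) by polyA RNA sequencing. The members were the protein-coding genes whose symbols begin with Polr1, or with Rrp, Utp, Nop, Nol or Exosc and a digit, leaving out Nop10. There were 50 of them among the 54495 genes of the table, and 48 were tested among 13562 genes that passed a filter, which asked for 1 FPKM or more in 2 or more of the 15 libraries. FPKM counts fragments per kilobase of a gene after scaling between libraries. By role, 5 members belong to RNA polymerase I, 22 to the small subunit processome and box C/D particle, 10 to large subunit assembly, 10 to the RNA exosome, and 3 have other known roles.

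Every group lacked both mTR, the telomerase RNA, and Wrn, a DNA helicase whose loss in people causes Werner syndrome. TM fibroblasts (mTR-/-Wrn-/-p53N236S/N236S) were homozygous for the p53 change N236S, and DM fibroblasts (mTR-/-Wrn-/-p53WT) kept wild-type p53. The generations of breeding without telomerase are written G1, G3 and G5. The libraries were 2 of G1TM and 2 of G1DM, 3 of G3TM and 2 of G3DM, and 3 of G5TM and 3 of G5DM. The cells came from e13.5 embryos and grew at 37 °C under 3% O2 and 5% CO2, in DMEM containing 10% fetal bovine serum. The design text also names WT and p53S MEFs, which were not analysed here.

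RNA polymerase I transcribes the large ribosomal RNA precursor in the nucleolus. The small subunit processome, with the U3 box C/D particle, assembles on the precursor as it is made, and other factors build the large subunit around their share of the cleaved RNA. The RNA exosome trims 3′ ends of the intermediates. In mouse and human cells, ribosomal proteins Rpl5 and Rpl11 that are not built into ribosomes bind Mdm2 and stabilise p53, which links this pathway to the gene altered in TM cells.

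The 15 libraries held 17448588 to 29571111 reads recovered from the FPKM values, and 19758 to 25789 genes lay above 0. Wrn stayed between 0.0447 and 0.599 FPKM in all 15 libraries, and Terc, the mTR gene, was above 0 in 1. A base change such as N236S cannot be read from expression values. The 10 fibroblast markers, Col1a1, Col3a1 and Pdgfra among them, summed to 3080 to 6220 FPKM in every library. Of these 10, 3 were called lower in G3TM than in G3DM and 5 in G5TM than in G5DM (13.9% and 28.4% of all tested genes), and 7 in G5TM than in G1TM (23.5% of all tested genes). Lum was at 1.08, 1.85 and 1.22 FPKM in G5TM, against 13.8, 31.6 and 34.8 FPKM in G5DM. In G3 the 3 TM libraries expressed Y-linked genes and the 2 DM libraries expressed Xist, so sex and p53 genotype in G3 cannot be told apart. No label says that replicates came from separate embryos, so all p-values measure only the spread between these libraries. In such bulk RNA, fewer cells of a type and less RNA per cell cannot be told apart.

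One division of the libraries stands before all results. The 8 members named Rrp lay between 5.66 and 102 FPKM in the 6 G3TM and G5TM libraries, against 0.177 to 3.32 FPKM in the other 9 libraries. These values rested on 460 to 6556 reads a gene and library in G3TM and G5TM, and on 11 to 316 reads in the other 9. Genes outside the pathway parted the same libraries. The mitochondrial ribosomal RNA mt-Rnr1 was at 46.8 to 77.8 FPKM in G3TM and G5TM, against 0.488 to 1.31 FPKM in the other 9. The long noncoding RNA Gm26917 was at 224 to 460 FPKM in the 6 libraries, against 0.0999 to 0.517 FPKM in the 9. The mitochondrial mRNA mt-Co1 went the other way, with 839 to 1690 FPKM in the 6 and 3870 to 4920 FPKM in the 9. The ribosomal protein gene Rpl12 was at 300 to 610 FPKM, against 3.84 to 6.77 FPKM, and the chaperone gene Hsp90aa1 at 40.4 to 73.2 FPKM, against 0.557 to 2.09 FPKM. Among the tested genes, 7 carry the words ribosomal RNA processing in the table's description. All 7 are members named Rrp, and all 7 parted the 6 libraries from the 9. Whether library preparation or a filter on ribosomal sequences differed between the 6 and the 9 is not stated in the labels, and this was not tested. The part of this division in the results was not tested, and in G3 and G5 it cannot be told apart from the p53 genotype. In G3TM and G5TM against G1TM it cannot be told apart from generation. The same holds for changes of the TM minus DM difference between G1 and a later generation. Counts over the members are therefore given with all 48 tested members and with the 40 that are not named Rrp. Both hold members, such as Exosc5, that passed the filter only through G3TM and G5TM.

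Without overlap between the 6 G3TM and G5TM libraries and the other 9, 20 of the 48 tested members were higher and 0 were lower. Over all tested genes the shares were 17.1% higher and 9.63% lower. Of the 40 members not named Rrp, 12 were higher without overlap, which is 30.0%.

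**Figure D1:**
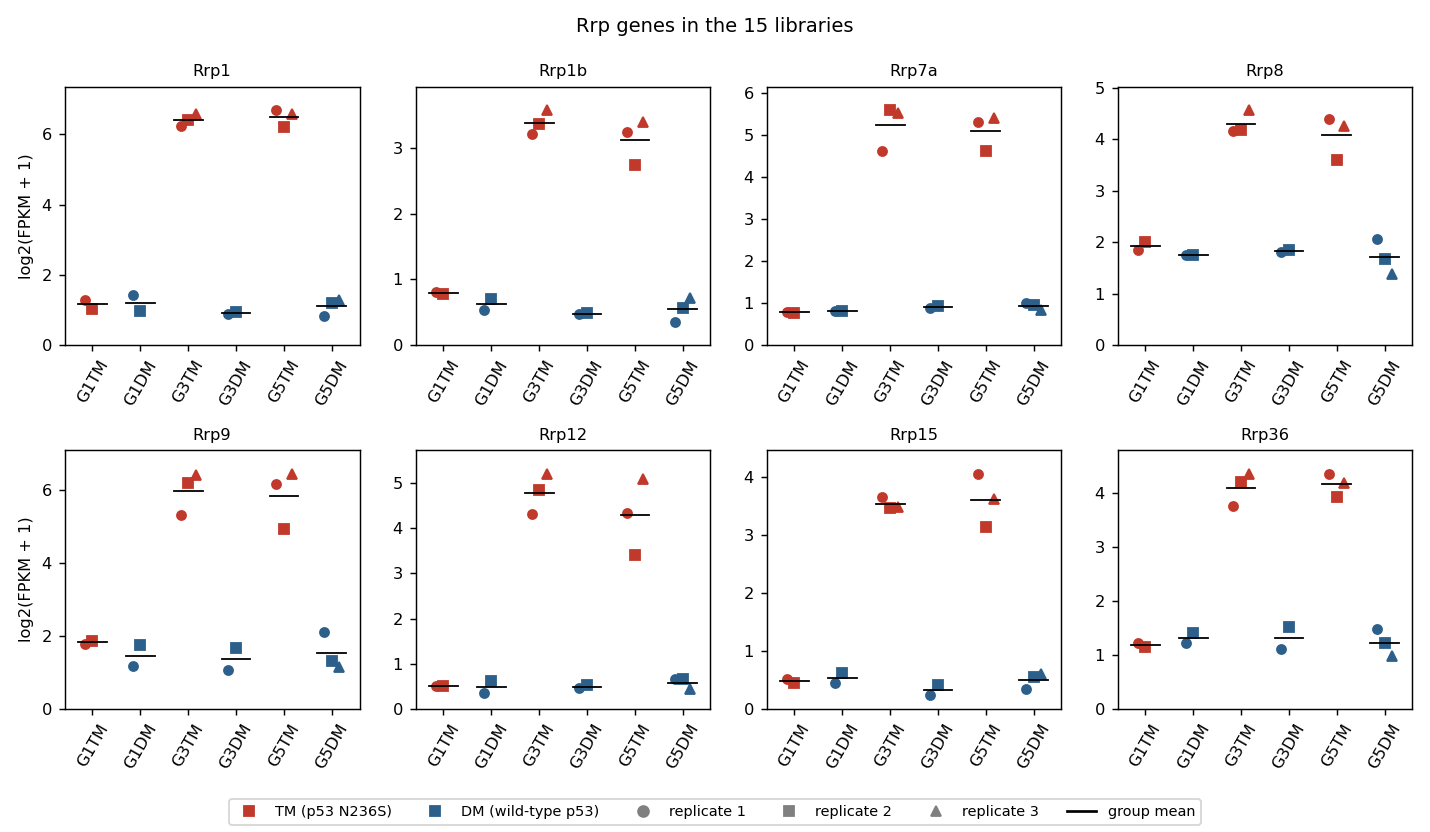
The 8 members named Rrp in each of the 15 libraries, on a log2(FPKM + 1) axis that differs between panels; colours give the p53 genotype, point shapes the replicate, and black lines the group means. In every panel the 6 G3TM and G5TM libraries lie above the other 9.

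Rrp1, the mouse counterpart of a yeast large subunit assembly factor (chromosome 10, 78400384 to 78413043), showed the widest step of all members. Rrp1 was at 74.7, 83.8 and 95.3 FPKM in G3TM, against 0.859 and 0.931 FPKM in G3DM. In G5 it was at 102, 73.5 and 94.1 FPKM in TM, against 0.780, 1.31 and 1.43 FPKM in DM. The G1 libraries lay at 1.44 and 1.04 FPKM in G1TM, against 1.67 and 0.979 FPKM in G1DM. Its groups did not overlap in G3 and G5, and they overlapped in G1. The TM minus DM difference of log2(FPKM + 1) was 5.49 ± 0.21 (SE) in G3 and 5.38 ± 0.19 in G5, with adjusted p-values in limma of 2.47e-09 and 9.89e-10. In G1 it was -0.04 ± 0.23, with an adjusted p of 0.987 in limma.

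Rrp1b, its vertebrate paralogue, was at 8.28, 9.29 and 10.9 FPKM in G3TM, against 0.386 and 0.397 FPKM in G3DM. In G5 Rrp1b was at 8.45, 5.66 and 9.49 FPKM in TM, against 0.281, 0.486 and 0.645 FPKM in DM. The groups stood apart in both generations, by 2.91 ± 0.20 log2 units in G3 and 2.57 ± 0.18 in G5. In G1 Rrp1b was at 0.759 and 0.712 FPKM in TM, against 0.454 and 0.631 FPKM in DM.

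The small subunit factors named Rrp showed such a step too. Rrp9, a protein of the U3 particle, was at 38.5, 72.4 and 84.1 FPKM in G3TM, against 1.10 and 2.15 FPKM in G3DM. In G5 Rrp9 was at 70.3, 29.2 and 85.5 FPKM in TM, against 3.32, 1.5 and 1.2 FPKM in DM. The lowest TM library, G5TM replicate 2, was still far above the highest DM library. Rrp7a, whose yeast relative acts in the processome, was at 23.5, 47.0 and 45.2 FPKM in G3TM, against 0.848 and 0.919 FPKM in G3DM, and at 38.4, 23.4 and 41.0 FPKM in G5TM, against 0.993, 0.930 and 0.770 FPKM in G5DM. Rrp12, a pre-ribosome export factor in yeast, was at 18.8, 27.8 and 35.9 FPKM in G3TM, against 0.386 and 0.432 FPKM in G3DM, and at 19.4, 9.70 and 33.4 FPKM in G5TM, against 0.577, 0.577 and 0.346 FPKM in G5DM. Neither gene overlapped between TM and DM, and G5TM replicate 2 was again the lowest TM library of G5. Rrp36, needed in yeast for early precursor cleavage, was at 12.4, 17.3 and 19.2 FPKM in G3TM, against 1.16 and 1.84 FPKM in G3DM, and at 19.3, 14.2 and 17.1 FPKM in G5TM, against 1.78, 1.32 and 0.980 FPKM in G5DM.

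Rrp15, a large subunit factor in yeast, was at 11.6, 10.0 and 10.2 FPKM in G3TM, against 0.177 and 0.336 FPKM in G3DM, and at 15.6, 7.83 and 11.3 FPKM in G5TM, against 0.274, 0.471 and 0.515 FPKM in G5DM. Rrp8, whose yeast relative methylates large subunit RNA, ranged from 11.1 to 22.6 FPKM in G3TM and G5TM, against 1.62 to 3.18 FPKM in the other 9 libraries. All 8 were called higher in G3 and in G5, where 18% and 30.3% of all tested genes were, by 2.46 to 5.49 log2 units in G3 and 2.38 to 5.38 in G5. Rrp1b, Rrp7a, Rrp12 and Rrp15 reached at most 0.759, 0.993, 0.577 and 0.531 FPKM in the other 9 libraries. They passed the filter of 1 FPKM only through G3TM and G5TM, so their calls are no independent support for the difference. In G1 the 8 differences ran from -0.13 to 0.37, and none was called. Rrp9 shares 987 bases with Parp3 on the opposite strand, and Rrp8 794 bases with Ilk. The source of the counts does not say whether strand was used, so reads of such pairs may be shared.

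Exosc5, a ring subunit of the RNA exosome (chromosome 7, 25659164 to 25671368), was the member outside the Rrp names with the same step. It was at 6.06, 13.1 and 13.0 FPKM in G3TM, against 0.333 and 0.512 FPKM in G3DM. In G5 it was at 11.9, 6.73 and 11.9 FPKM in TM, against 0.407, 0.626 and 0.521 FPKM in DM. The G1 libraries lay at 0.427 and 0.451 FPKM in TM, against 0.367 and 0.412 FPKM in DM. All 6 G3TM and G5TM libraries were above the other 9, and Exosc5 differed by 2.98 ± 0.29 log2 units in G3 and 2.84 ± 0.26 in G5, with adjusted p-values of 2.55e-05 and 7.51e-06 in limma. Exosc5 reached at most 0.626 FPKM in those 9, so it too passed the filter only through G3TM and G5TM.

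The other exosome subunits had smaller differences in G3 and G5. Exosc3, an RNA-binding cap subunit, was at 25.9, 27.0 and 27.7 FPKM in G3TM, against 5.67 and 7.00 FPKM in G3DM, and at 34.7, 25.3 and 26.8 FPKM in G5TM, against 9.00, 6.91 and 7.61 FPKM in G5DM. In G1 it was at 14.2 and 13.8 FPKM in TM, against 7.92 and 10.6 FPKM in DM. TM lay above DM in each generation, and the differences were 1.93 ± 0.19 log2 units in G3 and 1.75 ± 0.17 in G5. Exosc8, a ring subunit, was at 11.1, 12.2 and 13.2 FPKM in G3TM, against 3.42 and 2.78 FPKM in G3DM, and at 16.3, 9.51 and 12.7 FPKM in G5TM, against 4.17, 3.36 and 4.32 FPKM in G5DM. In G1 Exosc8 was at 8.37 and 8.46 FPKM in TM, against 3.30 and 4.83 FPKM in DM. It did not overlap between TM and DM in any generation, and its G1 difference of 0.91 ± 0.23 log2 units had the lowest adjusted p of all members in G1, 0.0749 in limma.

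Exosc10, the nuclear 3′ exonuclease of the complex, was at 33.1, 38.9 and 43.8 FPKM in G3TM, against 23.8 and 24.6 FPKM in G3DM. In G5 it was at 34.1, 24.3 and 41.3 FPKM in TM, against 21.6, 13.9 and 16.6 FPKM in DM. The G1 libraries were at 27.3 and 30.3 FPKM in TM, against 19.1 and 22.9 FPKM in DM. Its groups did not overlap in any generation, and Exosc10 was called in G5 (0.89 ± 0.21, adjusted p 0.00345 in limma) but not in G3 (0.64 ± 0.24, adjusted p 0.0536). The difference between these 2 effects did not pass the limma test of the interaction.

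Of the 9 tested exosome genes, 7 were called higher in G3 (18% of all tested genes) and 8 in G5 (30.3% of all tested genes), with median differences of 1.32 and 1.46 log2 units. The exception in direction was Exosc9, a ring subunit. It was at 2.00, 1.26 and 1.04 FPKM in G5TM, against 2.48, 3.69 and 3.62 FPKM in G5DM. All 3 TM libraries were below the 3 DM libraries, with a difference of -0.82 ± 0.20 (adjusted p 0.00375 in limma). In G3 it was at 2.05, 1.14 and 1.29 FPKM in TM, against 1.17 and 0.957 FPKM in DM, and the groups overlapped. Exosc9 shares 863 bases with Ccna2, the S and G2 phase cyclin, on the opposite strand, and Ccna2 reached 50.7 FPKM. Exosc6 was listed at 0 in all 15 libraries, and its whole length of 1326 bases lies within Aars on the same strand.

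**Figure D2:**
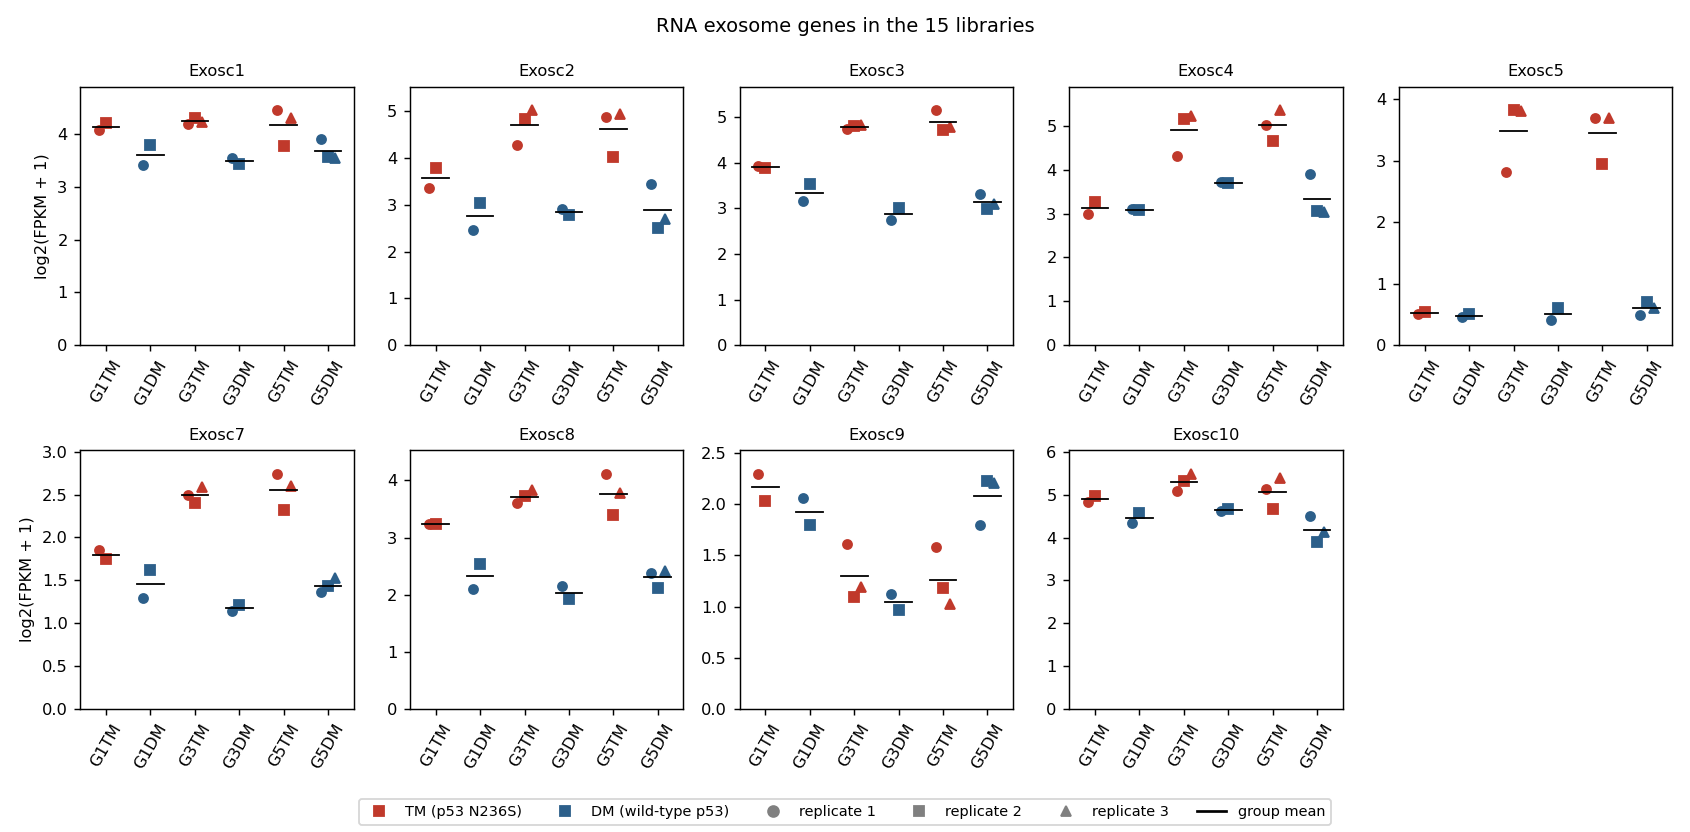
The 9 tested RNA exosome genes in each of the 15 libraries, on a log2(FPKM + 1) axis that differs between panels; colours give the p53 genotype, point shapes the replicate, and black lines the group means. Exosc5 shows the step seen for the Rrp genes, Exosc3 and Exosc8 are higher in TM in each generation, and Exosc9 is lower in G5TM than in G5DM.

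Of the 5 RNA polymerase I subunits whose symbols begin with Polr1, Polr1c and Polr1d were called higher in G3 and in G5 (18% and 30.3% of all tested genes). All 5 differences lay above 0 in G3. Subunits listed under other symbols are given with the genes outside the name rule. No test compared the subunits with each other. Polr1c, a subunit shared with RNA polymerase III, was at 28.2, 56.5 and 51.3 FPKM in G3TM, against 18.5 and 17.2 FPKM in G3DM, and at 49.4, 35.1 and 48.8 FPKM in G5TM, against 19.7, 9.49 and 10.2 FPKM in G5DM. In G1 Polr1c was at 13.3 and 16.3 FPKM in TM, against 12.3 and 11.3 FPKM in DM. Its differences were 1.24 ± 0.32 log2 units in G3 (adjusted p 0.0108 in limma) and 1.74 ± 0.29 in G5 (adjusted p 0.000337), and TM lay above DM in every generation without overlap.

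Polr1d, the other subunit shared with RNA polymerase III, was at 29.4, 33.4 and 35.5 FPKM in G3TM, against 19.6 and 19.5 FPKM in G3DM, and at 45.4, 28.1 and 33.5 FPKM in G5TM, against 20.8, 14.3 and 17.2 FPKM in G5DM. In G1 Polr1d was at 13.7 and 20.8 FPKM in TM, against 14.8 and 15.0 FPKM in DM, and these overlapped. It differed by 0.71 ± 0.23 log2 units in G3 (adjusted p 0.0318 in limma) and 0.98 ± 0.21 in G5 (adjusted p 0.00168).

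Neither of the largest subunits was called within a generation. Polr1a, the catalytic subunit, was at 11.1, 10.9 and 13.0 FPKM in G3TM, against 9.81 and 10.4 FPKM in G3DM, and at 10.1, 6.73 and 12.9 FPKM in G5TM, against 11.9, 9.13 and 8.13 FPKM in G5DM. In G1 it was at 13.2 and 14.6 FPKM in TM, against 7.44 and 11.4 FPKM in DM. The G5 groups overlapped, and the G5 difference was 0.00 ± 0.22 log2 units. It became -0.56 with libraries rescaled to a common sum (TPM) and then passed, but there the median of all tested genes was -0.50. Polr1b, the second largest subunit, was at 9.42, 14.1 and 17.6 FPKM in G3TM, against 7.15 and 6.63 FPKM in G3DM, and at 10.2, 5.78 and 15.1 FPKM in G5TM, against 9.19, 5.09 and 4.59 FPKM in G5DM. Its G1 values were at 9.13 and 11.6 FPKM in TM, against 4.55 and 7.38 FPKM in DM. Polr1b passed in the mean over the 3 generations only (0.73 ± 0.21, adjusted p 0.0102 in limma), where it was 0.73 ± 0.40 in G1, 0.86 ± 0.36 in G3 and 0.61 ± 0.32 in G5.

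Polr1e, which forms a dimer that helps initiation and elongation, was at 6.25, 7.23 and 8.40 FPKM in G3TM, against 5.06 and 5.17 FPKM in G3DM, and at 7.69, 4.36 and 7.62 FPKM in G5TM, against 6.34, 3.74 and 3.34 FPKM in G5DM. In G1 it was at 3.88 and 5.63 FPKM in TM, against 3.15 and 4.70 FPKM in DM. The G1 and G5 groups overlapped, and no comparison of TM with DM passed for Polr1e.

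**Figure D3:**
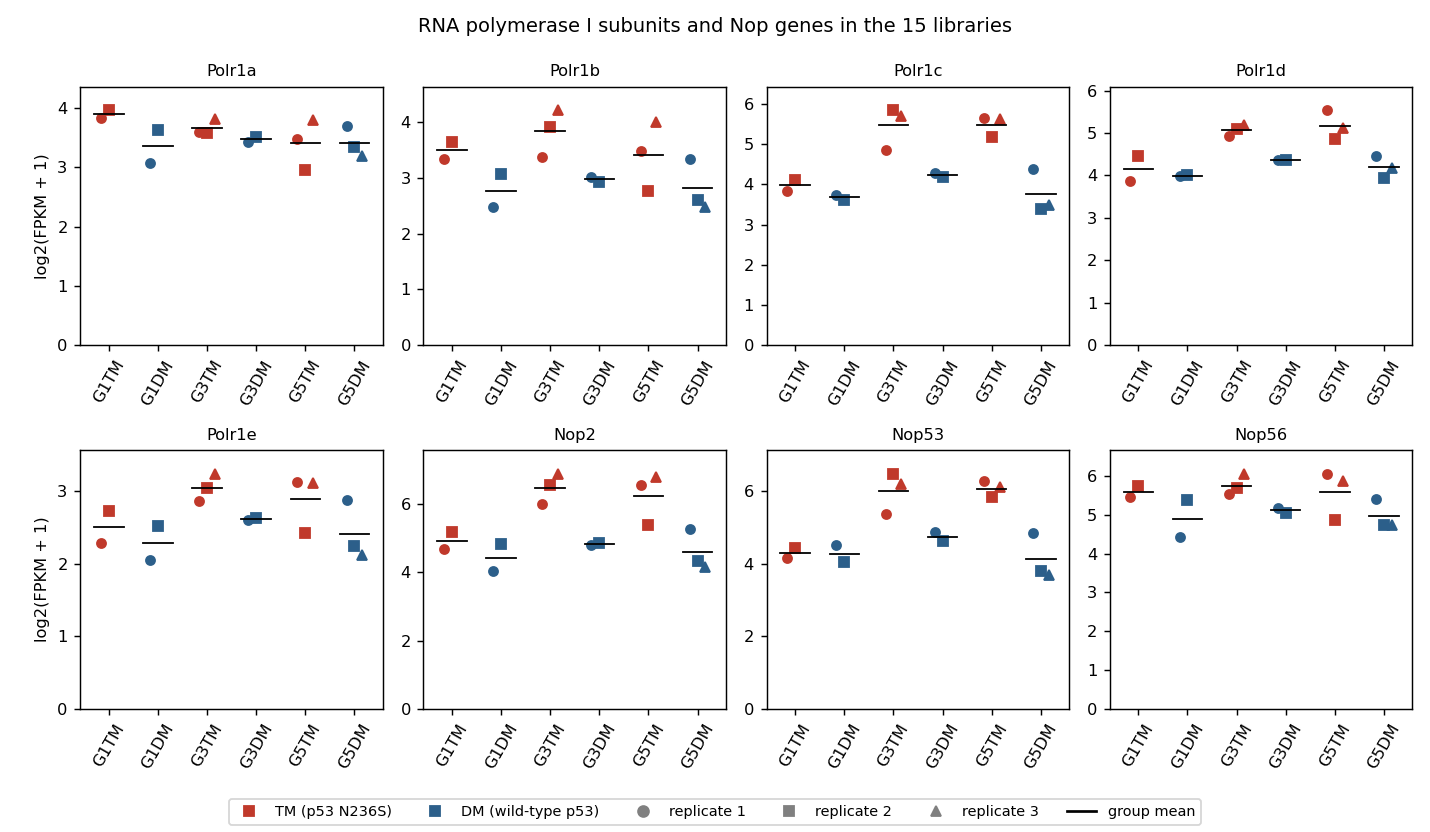
RNA polymerase I subunits Polr1a to Polr1e and the assembly factors Nop2, Nop53 and Nop56 in each of the 15 libraries, on a log2(FPKM + 1) axis that differs between panels; colours give the p53 genotype, point shapes the replicate, and black lines the group means. Polr1c, Polr1d, Nop2 and Nop53 are higher in all G3TM and G5TM libraries than in the other 9, whereas Polr1a is not.

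Large subunit assembly factors without the Rrp name also moved. Nop2, an RNA methyltransferase of the large subunit, was at 63.2, 93.5 and 117 FPKM in G3TM, against 27.1 and 27.8 FPKM in G3DM, and at 93.7, 40.9 and 109 FPKM in G5TM, against 37.4, 19.3 and 16.9 FPKM in G5DM. The G1 libraries were at 24.5 and 35.3 FPKM in TM, against 15.3 and 27.6 FPKM in DM, and these overlapped. Nop53, a factor that docks an exosome helicase on the precursor in yeast, was at 40.8, 88.0 and 71.8 FPKM in G3TM, against 28.2 and 23.8 FPKM in G3DM, and at 76.2, 55.9 and 68.4 FPKM in G5TM, against 28.0, 12.9 and 12.0 FPKM in G5DM. TM lay above DM in G3 and in G5 for both genes, by 1.65 ± 0.43 and 1.66 ± 0.39 log2 units for Nop2 and by 1.27 ± 0.36 and 1.96 ± 0.32 for Nop53.

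Nop16, a large subunit factor in yeast, rose by 1.48 ± 0.39 log2 units in G3 and 1.47 ± 0.35 in G5, and Nol12, a nucleolar RNA-binding protein, by 0.79 ± 0.27 and 1.29 ± 0.24. Nol8 fell in G5 (-0.82 ± 0.31, adjusted p 0.035 in limma), with 0.481 to 1.12 FPKM in G5TM, against 0.722 to 3.07 FPKM in G5DM. The Nol8 groups overlapped through G5DM replicate 1. Of the 10 large subunit members, 8 were called higher in G3 (18% of all tested genes), and 8 higher and 1 lower in G5 (30.3% and 28.4% of all tested genes). Among these 8 were Rrp1, Rrp1b, Rrp8 and Rrp15. Of the 6 without the Rrp name, 4 were called higher in each generation.

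Of the 22 members of the small subunit processome and box C/D particle, 4 were called higher in G3 (18% of all tested genes) and 4 in G5 (30.3% of all tested genes). These were Rrp7a, Rrp9, Rrp12 and Rrp36 in both generations, a share near that of all tested genes in G3 and below it in G5. In the mean of the generations 10 of the 22 were called higher, where 29% of all tested genes were. Among these 10 were the same Rrp7a, Rrp9, Rrp12 and Rrp36, besides Nop9, Nop56, Utp4, Utp11 and Utp15. Nop56, a core protein of box C/D particles, was at 45.1, 50.4 and 64.8 FPKM in G3TM, against 35.4 and 32.2 FPKM in G3DM, and at 65.4, 28.2 and 57.2 FPKM in G5TM, against 41.8, 25.8 and 25.5 FPKM in G5DM. Its G1 values were at 42.7 and 52.5 FPKM in TM, against 20.4 and 40.8 FPKM in DM. Its difference was 0.69 ± 0.40 in G1, 0.63 ± 0.36 in G3 and 0.63 ± 0.33 in G5, and it passed in their mean (0.65 ± 0.21, adjusted p 0.0189 in limma).

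Nop58, the partner of Nop56 in the particle, was at 7.62, 4.71 and 5.50 FPKM in G3TM, against 2.57 and 3.29 FPKM in G3DM. In G5 it was at 6.47, 3.41 and 6.60 FPKM in TM, against 5.24, 8.17 and 8.87 FPKM in DM. In G1 it was at 12.3 and 11.8 FPKM in TM, against 5.65 and 11.7 FPKM in DM. TM lay above DM in G1 and G3 and overlapped in G5, and none of the 3 differences passed. With the trends of each library on gene length and GC content removed, its G5 difference turned, being 0.76 log2 units in place of -0.39, and passed. Nop56 and Nop58 host small nucleolar RNA genes inside their own loci.

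Utp14a, a processome factor on the X chromosome, was at 5.39, 4.33 and 4.03 FPKM in G3TM, against 5.09 and 5.13 FPKM in G3DM, and at 6.2, 4.78 and 5.32 FPKM in G5TM, against 6.44, 6.24 and 5.23 FPKM in G5DM. The G1 libraries were at 9.22 and 9.27 FPKM in TM, against 6.2 and 8.50 FPKM in DM. Utp14b, its autosomal retrogene, was at 0.975, 0.566 and 0.369 FPKM in G3TM, against 0.435 and 0.546 FPKM in G3DM, and at 0.989, 0.818 and 0.473 FPKM in G5TM, against 0.693, 1.87 and 1.85 FPKM in G5DM. Its G1 values were at 2.28 and 2.25 FPKM in TM, against 1.29 and 1.30 FPKM in DM. Neither copy passed for TM against DM in a generation, and Utp14b is uncertain because it shares 13475 bases with Acsl3 on the same strand. Nol3, a repressor of apoptosis despite its nucleolar name, was at 0.491, 1.22 and 0.850 FPKM in G3TM, against 0.788 and 0.424 FPKM in G3DM, and at 0.617, 1.2 and 1.05 FPKM in G5TM, against 0.523, 0.393 and 0.361 FPKM in G5DM. In G1 it was at 0.441 and 0.350 FPKM in TM, against 0.725 and 0.271 FPKM in DM. Nol3 was not called in any comparison of TM with DM.

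**Figure D4:**
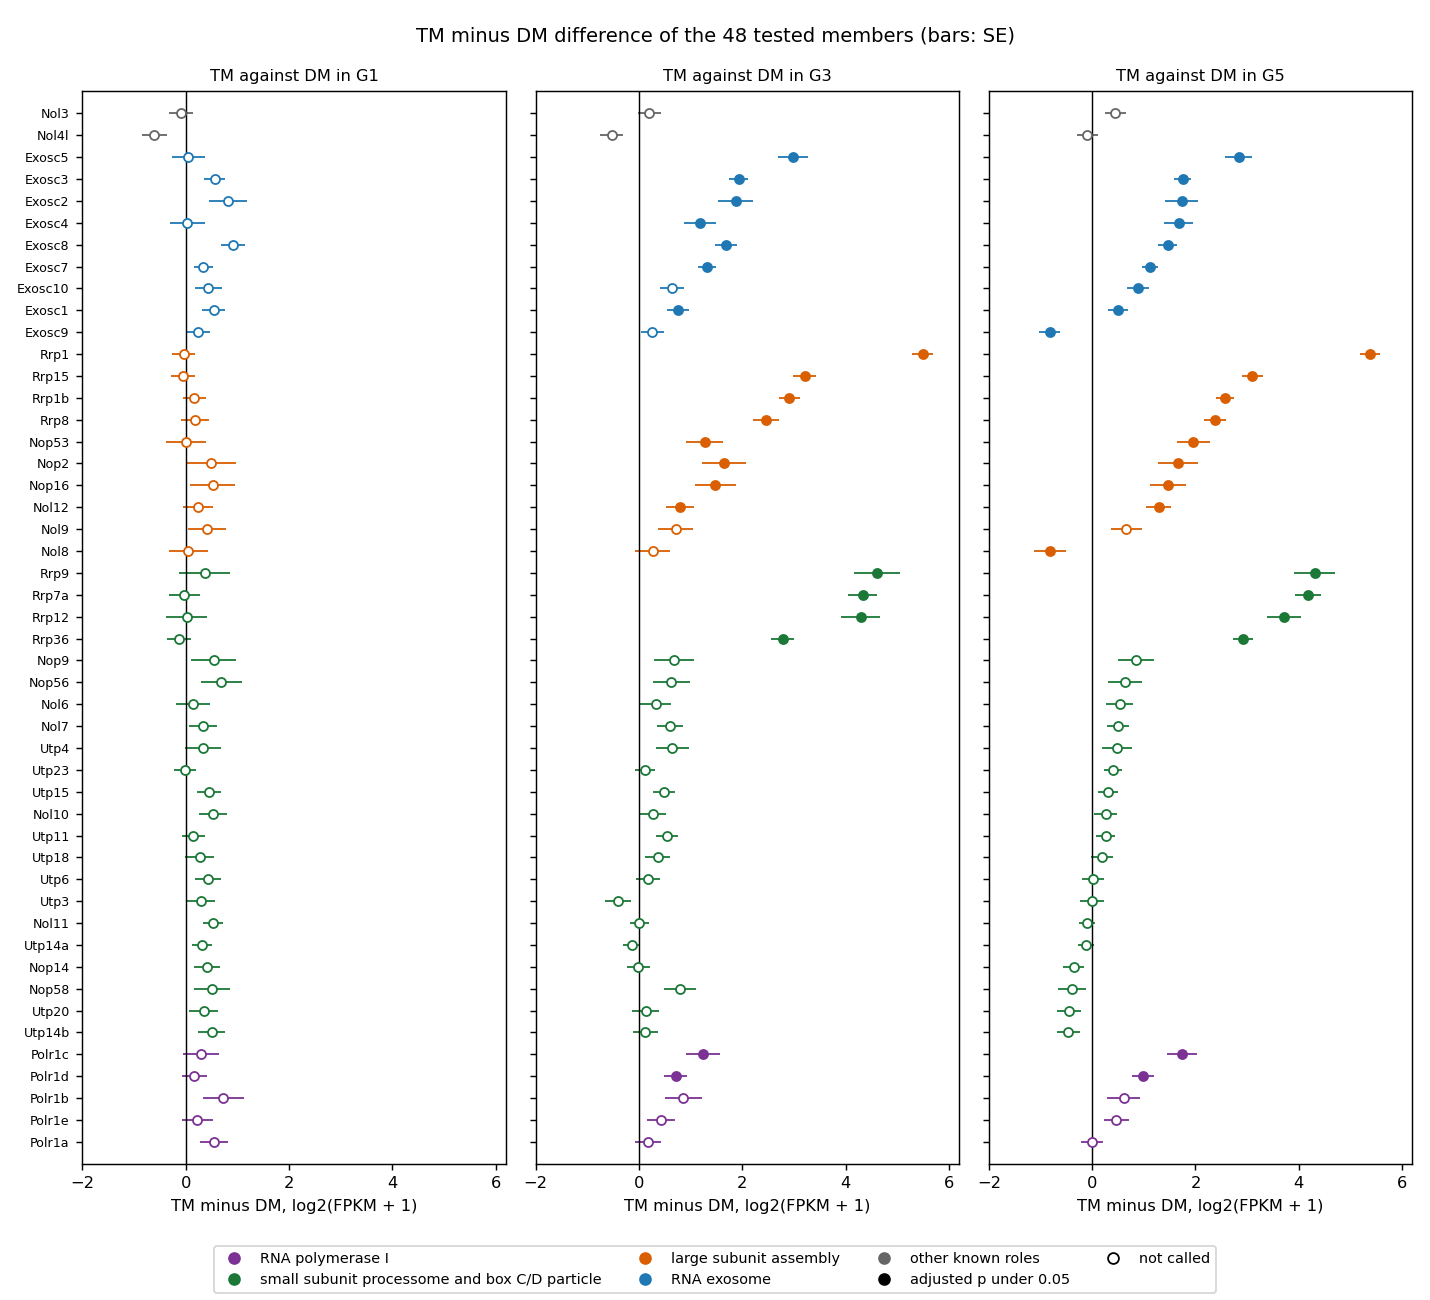
TM minus DM difference of log2(FPKM + 1) for each of the 48 tested members in G1, G3 and G5, coloured by role, with bars for 1 SE; filled points passed at an adjusted p under 0.05 in limma. In G1 no point is filled and most lie right of 0, and in G3 and G5 the filled points are Rrp genes, exosome subunits, large subunit factors and Polr1c and Polr1d.

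Over all members, none was called for TM against DM in G1, where 1.17% of all tested genes were. There 6 members had an unadjusted p under 0.05 in limma, as did 12.5% of all tested genes, and 1 was called after quantile normalization. The member differences in G1 nevertheless leaned one way. Of 48 members, 41 lay above 0, against 52.2% of all tested genes, and their median was 0.32 log2 units, against 0.02 for all tested genes. TM lay above DM without overlap for 27 members (26.4% of all tested genes) and below for 3 (23% of all tested genes). The 40 members not named Rrp had a median of 0.35, with 37 above 0.

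In G3, 21 members were called higher and none lower, while 18% of all tested genes were called higher, 13.9% lower and 32% in either direction. The member median was 0.70 log2 units, against 0.01 for all tested genes. Without the Rrp names 13 of 40 were called higher, with a median of 0.61. TM lay above DM without overlap for 34 members, against 31.6% of all tested genes. Leaving out either G3DM library left 1 in that group and reduced the called members. The share of all tested genes called in such fits is not given here. The 8 Rrp genes, Exosc2, Exosc3, Exosc5, Exosc7 and Exosc8 were called in every fit with 1 library left out.

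In G5, 22 members were called higher and 2 lower, while 30.3% of all tested genes were called higher, 28.4% lower and 58.7% in either direction. The member median was 0.62, against 0.02 for all tested genes. Without the Rrp names 14 of 40 were called higher and 2 lower, with a median of 0.49. TM lay above DM without overlap for 23 members, against 29.6% of all tested genes. Rescaling each library to a common sum (TPM) moved the median of all tested genes by TM minus DM to -0.31 in G3 and -0.50 in G5. On that scale 18 members were higher and 1 lower in G3, and 20 higher and 9 lower in G5, with member medians of 0.33 and 0.11. The shares of all tested genes called on that scale are not given here. The FPKM of all genes summed to 305000 to 426000 in G3TM and G5TM, against 221000 to 302000 in the other libraries.

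Over the mean of the 3 generations, 30 members were called higher and 1 lower (Nol4l), while 29% of all tested genes were higher, 25.1% were lower and 54.1% were called in either direction. The member median was 0.61, against 0.00 for all tested genes. Without the Rrp names the counts were 22 higher and 1 lower of 40.

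The tests of the interaction asked whether the TM minus DM difference itself changed between generations. Against G1, such a change cannot be told apart from the division of the libraries given above. For G3 against G1, 10 members had a larger difference in G3 and none a smaller one, while 1.53% of all tested genes were called higher and 2.42% in either direction. The 10 were the 8 Rrp genes, Exosc5 and Exosc3. Of these, Rrp1b, Rrp7a, Rrp12, Rrp15 and Exosc5 passed the filter only through G3TM and G5TM. Their calls in both interactions with G1 are thus no independent support for a larger difference. For G5 against G1, 14 were larger and 1 smaller, while 11.5% of all tested genes were called higher, 8.33% lower and 19.8% in either direction. Without the Rrp names these counts were 2 for G3, and 6 larger and 1 smaller for G5. Exosc5 is among the 2 and among the 6. Leaving out either G1TM library left 1 in that group and reduced the called members for G5 against G1. The share of all tested genes called in such fits is not given here. For G5 against G3, limma called none of the members (0.236% of all tested genes). There 3 had an unadjusted p under 0.05, as did 14.1% of all tested genes.

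Within TM, members were called in both directions. The division of the libraries given above also parts G3TM and G5TM from G1TM, so it cannot be told apart from generation here. G3TM against G1TM gave 19 members called higher and 7 lower, while 25.2% of all tested genes were higher, 21.6% lower and 46.8% in either direction. G5TM against G1TM also gave 19 higher and 7 lower, beside 26% higher, 23.5% lower and 49.5% in either direction. Without the Rrp names both comparisons gave 11 higher and 7 lower of 40. By role, the small subunit members had 4 higher, all named Rrp, and 6 lower in each comparison, the exosome 5 higher and 1 lower, and large subunit assembly 8 higher and none lower. These comparisons share the 2 G1TM libraries. Without G1TM replicate 1, which left 1 library in that group, fewer members were called in both. The share of all tested genes called in such fits is not given here. Nop58 differed by -0.93 ± 0.31 log2 units in G3TM and -1.05 ± 0.31 in G5TM relative to G1TM, but with length and GC trends removed these were 0.25 and 0.19 and did not pass. Nop14, a processome factor, differed by -0.80 ± 0.23 and -0.88 ± 0.23. Utp14a differed by -0.88 ± 0.17 and -0.68 ± 0.17, and Utp20, a large processome scaffold protein, by -0.63 ± 0.26 and -0.87 ± 0.26, of which the second passed and became 0.07 with those trends removed. Both G1TM libraries expressed Xist and the 3 G3TM libraries Y-linked genes, so sex and generation cannot be told apart for the X-linked Utp14a and the other members in G3TM against G1TM. On the TPM scale the split turned, with 13 members higher and 15 lower in G3TM and 13 higher and 14 lower in G5TM. There the median of all tested genes moved to -0.48 and -0.49, and the shares of all tested genes called are not given here. G5TM against G3TM gave no called member (0.0295% of all tested genes), and no member had an unadjusted p under 0.05 (2.81% of all tested genes).

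Within DM, few members passed between generations. No member was called in G3DM against G1DM (0.214% of all tested genes) or in G5DM against G1DM (0.059% of all tested genes). In limma 6 members had an unadjusted p under 0.05 in the first of these (20.5% of all tested genes) and 0 in the second (5.08%). Exosc9 was the 1 member called in G5DM against G3DM, by 1.03 ± 0.22 log2 units (adjusted p 0.0303 in limma), where 3.35% of all tested genes were called higher and 4.98% in either direction. It was at 2.48, 3.69 and 3.62 FPKM in G5DM, against 1.17 and 0.957 FPKM in G3DM, and the groups did not overlap. With no filter, a stricter filter, TPM, the replicate block or a fit of the compared groups alone, 0 members were called here.

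The size of the difference went with the base composition of the members. Across the 40 tested members not named Rrp, the correlation of the TM minus DM difference with the GC content of a gene's transcripts was 0.44 in G3 and 0.72 in G5, and -0.22 in G1. Over all tested genes it was 0.24, 0.49 and -0.09. Within DM, the G3 minus G1 difference had a correlation of 0.83 with GC content over these 40 members and 0.53 over all tested genes. The members share their libraries, so these are descriptions. GC content ran from 41.4% in Nol8 to 57.6% in Exosc4 among the 40, with a median of 50.3%, against 55.9% for the Rrp genes and 50.9% for all tested genes. With the trends on gene length and GC content removed, 25 members were higher and none lower in G3, and 28 higher and 2 lower in G5. The member median was then 0.62 log2 units in G3 and in G5, against -0.01 for all tested genes in each. The same removal gave 16 higher and 3 lower in G3TM against G1TM. The shares of all tested genes called after this removal are not given here, so these counts cannot be set beside them.

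**Figure D5:**
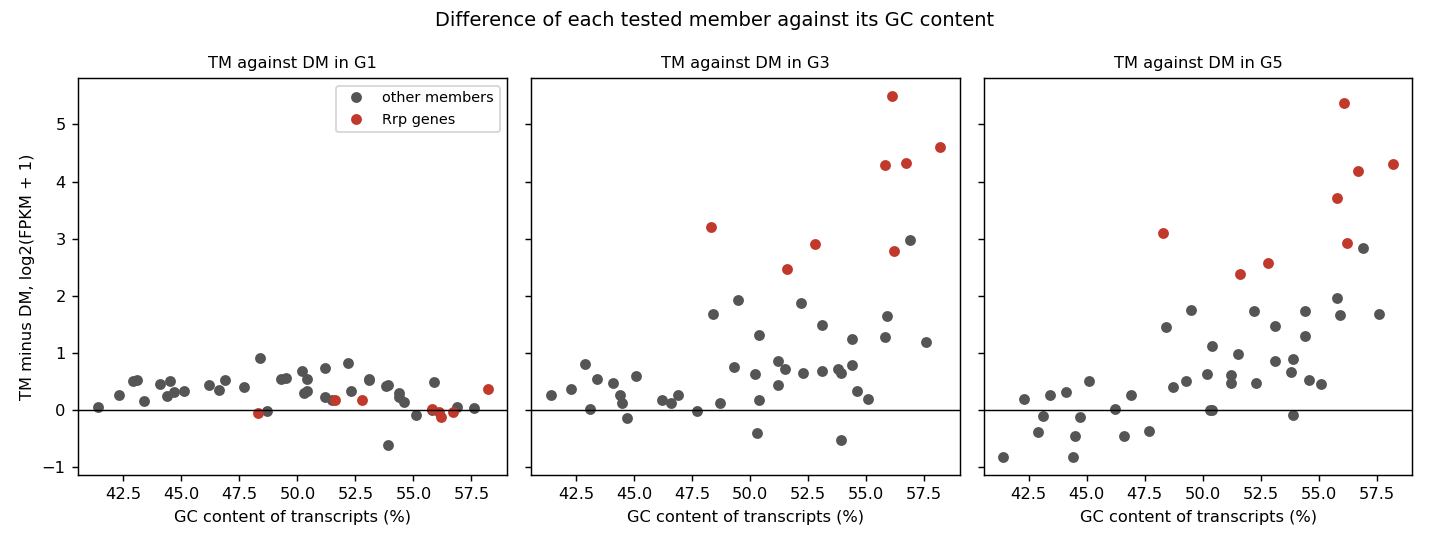
TM minus DM difference of log2(FPKM + 1) of each tested member against the mean GC content of its transcripts in percent, in G1, G3 and G5; red points are the 8 Rrp genes and grey points the other 40. The grey points climb with GC content in G5 (correlation 0.72) and not in G1 (-0.22).

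Other genes of the pathway, outside the name rule, were counted by role. Of all tested genes, 18% were called higher in G3, and 30.3% higher and 28.4% lower in G5. Of 27 tested small subunit factors, 10 were called higher in G3, and 14 higher and 1 lower in G5. Fbl, the RNA methyltransferase of box C/D particles, was at 55.7, 87.7 and 89.9 FPKM in G3TM, against 17.6 and 17.7 FPKM in G3DM, and at 96.6, 45.5 and 87.5 FPKM in G5TM, against 25.5, 12.4 and 11.1 FPKM in G5DM. It differed without overlap, by 2.05 ± 0.38 and 2.18 ± 0.34 log2 units. Of 33 tested large subunit factors, 12 were higher in G3, and 13 higher and 4 lower in G5. Bop1, of the Pes1, Bop1 and Wdr12 complex, rose by 1.25 ± 0.40 in G3 and 1.54 ± 0.36 in G5. Pes1 differed by 0.81 ± 0.37 and 1.06 ± 0.33, of which the second passed, and Wdr12 by 0.30 ± 0.21 and 0.06 ± 0.19, neither of which passed.

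Of 11 RNA polymerase I factors outside the rule, 4 were called higher in G3, and 4 higher and 3 lower in G5, where the shares were near the 30.3% and 28.4% of all tested genes. Among the 11 were the subunits Znrd1, Cd3eap and Twistnb. Their G3TM means were 26.2, 21.3 and 1.41 FPKM, against 10.2, 10.3 and 1.95 FPKM in G3DM. Their G5TM means were 29.7, 17.1 and 1.33 FPKM, against 9.93, 9.62 and 3.65 FPKM in G5DM. Ubtf, which opens the ribosomal RNA genes, was at 46.1, 55.6 and 55.9 FPKM in G3TM, against 23.0 and 23.2 FPKM in G3DM, and at 56.8, 40.2 and 53.5 FPKM in G5TM, against 21.8, 13.0 and 16.1 FPKM in G5DM. Rrn3, the initiation factor that recruits the polymerase, lay lower in all TM libraries of G3 and G5 without passing (-0.60 ± 0.23 and -0.49 ± 0.21). Npm1, an abundant nucleolar chaperone, differed by -0.03 ± 0.33 and -0.39 ± 0.30, and Ncl, nucleolin, by 1.30 ± 0.40 in G3, which passed, and -0.24 ± 0.36 in G5. Of 9 tested exosome cofactors, 2 were called higher in G3 (18% of all tested genes), and 2 higher and 3 lower in G5, with a median of -0.34 log2 units in G5. Dis3, a nuclease that joins the exosome, rose by 1.75 ± 0.28 in G3 and 0.97 ± 0.25 in G5, while Zcchc7, Rbm7 and C1d were called lower in G5, with differences of -1.05 ± 0.31, -0.79 ± 0.23 and -0.48 ± 0.19. Myc, a transcription factor known to activate many of these genes, rose by 1.34 ± 0.35 and 1.02 ± 0.32, with 48.1 to 67.1 FPKM in G3TM, against 22.2 and 23.4 FPKM in G3DM. The list of 6 regulators also held Max, Mycn, Cdkn1a, Mdm2 and Trp53. Of these 6, 1 was called higher and 2 lower in G3 (18% and 13.9% of all tested genes). In G5, 2 were called higher and 2 lower (30.3% and 28.4%), and in G1, 1 was called lower (0.811%).

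RefSeq promoter windows (GRCm38.p6) of 250 bases before to 50 after the start were found for 40 members. The letters CACGTG, the E-box that Myc and related factors can bind, occurred in 8 of them (20.0%), against 8.09% of 27025 genes. The cell cycle homology letters TTTGAA or TTCGAA, searched on both strands, occurred in 2 (5.0%), against 21.7%, and the E2F letters TTTCGCGC, TTTGGCGC, TTTCCCGC or TTTGCCGC in 1 (2.5%), against 2.6%. The members with an E-box were Exosc5, Nol11, Nop2, Rrp7a, Utp4, Utp14b, Utp18 and Utp20. Of these 8, Exosc5, Nop2 and Rrp7a were called higher in G3 and G5 and the others were not. Of all 48 tested members, 21 were called higher in G3 and 22 in G5 (18% and 30.3% of all tested genes). Members with and without an E-box were not compared in a test. A match is only a match of letters. The windows of these 3 and of Nol11, which was not called, are shown 5′ to 3′ with the E-box in capitals.
Nop2 chr6:125131633-125131932 plus strand: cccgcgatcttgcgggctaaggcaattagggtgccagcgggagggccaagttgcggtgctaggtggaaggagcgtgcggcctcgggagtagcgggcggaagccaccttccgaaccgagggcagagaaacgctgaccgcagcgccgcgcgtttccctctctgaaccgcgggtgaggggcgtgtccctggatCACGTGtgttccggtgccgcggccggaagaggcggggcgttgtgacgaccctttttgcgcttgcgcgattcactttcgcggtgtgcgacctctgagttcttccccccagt
Exosc5 chr7:25658903-25659202 plus strand: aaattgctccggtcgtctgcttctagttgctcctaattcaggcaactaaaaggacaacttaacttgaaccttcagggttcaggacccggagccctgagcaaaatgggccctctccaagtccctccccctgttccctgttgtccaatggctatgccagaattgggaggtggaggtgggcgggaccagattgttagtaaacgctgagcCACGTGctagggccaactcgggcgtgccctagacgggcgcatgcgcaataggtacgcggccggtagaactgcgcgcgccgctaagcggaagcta
Rrp7a chr15:83122752-83123051 minus strand: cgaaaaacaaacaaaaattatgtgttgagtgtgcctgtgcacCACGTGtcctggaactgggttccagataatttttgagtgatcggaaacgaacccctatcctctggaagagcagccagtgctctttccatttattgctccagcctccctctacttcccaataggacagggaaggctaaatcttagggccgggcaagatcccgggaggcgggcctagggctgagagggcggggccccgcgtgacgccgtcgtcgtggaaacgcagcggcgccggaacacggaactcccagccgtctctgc
Nol11 chr11:107189332-107189631 minus strand: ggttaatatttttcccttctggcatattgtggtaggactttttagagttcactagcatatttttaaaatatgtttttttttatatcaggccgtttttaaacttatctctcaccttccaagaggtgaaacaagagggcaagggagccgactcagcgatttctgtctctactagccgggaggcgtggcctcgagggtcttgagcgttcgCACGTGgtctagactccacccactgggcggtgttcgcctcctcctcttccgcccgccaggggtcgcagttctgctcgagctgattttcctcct

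Libraries and cells also varied in ways that touch these results. The summed FPKM of the members was 733 in G5TM replicate 2 and 892 in G3TM replicate 1, against 1140 to 1270 in the other G3TM and G5TM libraries and 367 to 621 in the remaining 9. Skeletal muscle markers summed to 3.48 to 243 FPKM in G3TM, against 1.65 to 3.06 FPKM in G3DM, and to 10.6 to 51.4 FPKM in G5TM, against 1.89 to 3.63 FPKM in G5DM. Neural markers summed to 82.3 to 243 FPKM in G3TM, against 24.6 to 39.9 FPKM in G3DM, and to 79.0 to 113 FPKM in G5TM, against 13.7 to 31.6 FPKM in G5DM. Macrophage and leukocyte markers summed to 4.76 to 290 FPKM in G3TM, against 21.1 to 21.9 FPKM in G3DM, and to 20.1 to 93.3 FPKM in G5TM, against 43.5 to 73.5 FPKM in G5DM. Epithelial markers summed to 22.1 to 71.7 FPKM in G3TM, against 33.6 to 46.8 FPKM in G3DM, and to 19.1 to 49.6 FPKM in G5TM, against 3.69 to 5.21 FPKM in G5DM. Krt8 and Krt18, the 2 tested epithelial markers, were both called higher in G5, with a median of 2.53 log2 units, and neither in G3. The 2 tested neural markers were called higher in G3 and in G5. Of 4 tested skeletal muscle markers, 3 were called higher in G3 and none in G5. Of 2 tested endothelial markers, 2 were called lower in G3 and 1 in G5. No macrophage and leukocyte marker was called. Of all tested genes, 18% were higher and 13.9% lower in G3, and 30.3% and 28.4% in G5. Endothelial markers summed to 1.11 to 1.32 FPKM in G3TM, against 3.67 to 3.92 FPKM in G3DM, and to 0.488 to 1.44 FPKM in G5TM, against 1.62 to 2.26 FPKM in G5DM. Fibroblast markers summed to 3580 to 4580 FPKM in G3TM, against 4810 to 6220 FPKM in G3DM, and to 3080 to 3390 FPKM in G5TM, against 3930 to 4100 FPKM in G5DM. Of the 4 erythroid markers, 3 were at 0 in every library of G3TM, and likewise of G1DM, G3DM and G5DM. In G1TM 4 were at 0, and in G5TM 2. The part of other cell types in the results was not tested.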

How the data were processed

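RNA of 15 MEF cultures was extracted with TRIzol and made into polyA libraries with a NEBNext Ultra kit, per the labels' protocols. The authors deposited 1 table of FPKM for 54495 genes. Tools named, with no role, in the submitters' processing notes are HISAT2 2.0.5, DESeq2 1.20.0, CASAVA 1.8, featureCounts 1.5.0-p3 and fastp. The genome build is not given in the sources used here. Gene coordinates in the table were those of GENCODE vM21 (GRCm38) for 48 of 50 members and 98.1% of all identifiers. FPKM times gene length was a whole multiple of 1 step per library for 100% of values (tolerance 0.05), which gave back read numbers. The scaling did not follow the recovered totals alone. At 1 kb, 1 read was 0.0679 FPKM in G3TM replicate 2, with 18248823 reads. It was 0.0554 FPKM in G5DM replicate 1, with 18581227 reads.

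A gene needed 1 FPKM or more in 2 or more of the 15 libraries to be tested. In R 4.3.3, limma 3.58.1 fitted 6 group means to log2(FPKM + 1), with an intensity trend. A pseudocount of 1 understates the change of low genes. Two-sided p-values were adjusted by Benjamini-Hochberg over all 13562 tested genes in each of 13 comparisons, and an adjusted p under 0.05 was called. The fit was tested on simulated data. Values in every library are given for Polr1a to Polr1e, Rrp1, Rrp1b, Nop56, Nop58, Exosc10, Utp14a, Utp14b and Nol3, and for members ranked by size among called genes with a group mean of at least 5 FPKM. Further members, such as Exosc3, Exosc8, Exosc9, Nop2 and Nop53, were chosen after their values were seen. Members, lists and the name rule were chosen with earlier results of these data known. Alternatives were another pseudocount and filter, quantile and TPM scaling, a replicate block, a gene length trend, a fit of the compared groups alone, and each library left out. Removal of GC content trends and the counts without Rrp names were added after seeing the data. Python 3.11.15 with pandas 2.3.3, numpy 2.4.6 and matplotlib 3.10.9 handled tables and plots.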

Additional observations from a re-analysis of the deposited data

Results flagged for a closer look

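The TM minus DM difference changed between generations for these members, by the limma test of the interaction, in log2 units. Between G3 and G1 it grew by 5.53 for Rrp1, 4.36 for Rrp7a, 4.27 for Rrp12, 4.24 for Rrp9, 3.26 for Rrp15, 2.92 for Rrp36, 2.74 for Rrp1b and 2.29 for Rrp8. Outside the Rrp names it grew by 2.93 for Exosc5 and 1.37 for Exosc3. Between G5 and G1 it grew by 5.43 for Rrp1, 4.21 for Rrp7a, 3.94 for Rrp9, 3.69 for Rrp12, 3.15 for Rrp15, 3.06 for Rrp36, 2.40 for Rrp1b and 2.20 for Rrp8. Outside the Rrp names it grew by 2.79 for Exosc5, 1.95 for Nop53, 1.65 for Exosc4, 1.44 for Polr1c, 1.19 for Exosc3 and 0.78 for Exosc7. For Exosc9 it changed by -1.06. Every member listed here as growing also parts the 6 G3TM and G5TM libraries from the other 9, as mt-Rnr1, Gm26917 and Rpl12 do. This holds for the 8 Rrp genes, Exosc3, Exosc4, Exosc5, Exosc7, Nop53 and Polr1c, but not for Exosc9. The part of that division was not tested. Rrp1b, Rrp7a, Rrp12, Rrp15 and Exosc5 passed the filter only through G3TM and G5TM, so their calls here are no independent support.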

How the results depend on the processing

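Counts of called members stayed within 1.5 times of the given count, apart from the following, and the causes were not tested. Quantile normalization called 1 member for TM against DM in G1. Without the Rrp names, chosen after seeing the data, the count was 13 in G3, 2 for the G3 interaction and 7 for the G5 interaction, by the smaller list itself. For G5DM against G3DM, 2 members were called with a pseudocount of 0.1 and 0 with no filter, the stricter filter, TPM, the replicate block, or only the groups compared. Leaving out 1 library at a time gave 0 to 0 members for TM against DM in G1, 13 to 25 in G3, 22 to 32 in G5 and 26 to 35 in the mean. It gave 0 to 3 for G3DM against G1DM (3 without G5DM replicate 1), 0 to 0 for G5DM against G1DM and 0 to 5 for G5DM against G3DM. Within TM it gave 14 to 29 for G3 against G1 and 15 to 27 for G5 against G1, lowest in both without G1TM replicate 1, and 0 to 0 for G5 against G3. For the interactions it gave 9 to 12 for G3, 9 to 21 for G5 (9 without either G1TM library) and 0 to 4 for G5 against G3 (4 without G5DM replicate 1). A group left with 1 library was assumed to vary like the others. The shares of all tested genes called under these settings are not given here, so these counts cannot be set beside them.

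Single members turned as follows. Polr1a in G5 was -0.56 on the TPM scale, where the median of all tested genes was -0.50. With length and GC trends removed, added after seeing the data, Nop58 was 0.76 in G5, 0.25 in G3TM against G1TM and 0.19 in G5TM against G1TM, and Utp20 was 0.07 in G5TM against G1TM. Of the members called, 13 of 21 in G3, 22 of 24 in G5 and 26 of 31 in the mean were kept in every fit with 1 library left out. The deviations of same-numbered libraries had correlations of -0.54 to 0.38 over 33 pairs. Pairs between groups of 2 libraries repeat a single value, so the 33 are not separate checks. No label says what a replicate number marks, and the numbers were not taken to pair samples. The replicate block called 20 members in G3, 23 in G5 and 29 in the mean. The mean of the 3 generations was not fitted with only the groups compared, since it uses all 6. Genes with few reads, such as Nol4 and Exosc6, could not be tested.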
